A study of Homo sapiens with 4 samples.

Results

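The hypoxia-inducible factor (HIF) system was followed through 10 genes out of 19192 in the count tables. These were the HIF subunit genes HIF1A, EPAS1 and ARNT, the oxygen sensor genes EGLN1, EGLN2, EGLN3 and HIF1AN, the degradation gene VHL, and the target genes CA9 and VEGFA. They were chosen by name, and all 10 had a row in each of the 4 count tables. SW480, a human line established from a colorectal adenocarcinoma, was sampled as 2 derivatives. The first is labelled LIN28B OE+IMP1-/- knockout and the second LIN28B OE, so the label of both lines includes LIN28B overexpression. IMP1 is the protein product of IGF2BP1. Each line gave 1 library of fragmented total RNA and 1 library of ribosome footprints, each from 3 pooled culture plates, and the labels do not say whether either line is a single clone.

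HIF is a transcription factor made of an oxygen-labile alpha subunit and a stable beta subunit. In oxygen, prolyl hydroxylases of the EGLN family mark the alpha subunit, VHL recognises the mark, and the subunit is ubiquitylated and destroyed by the proteasome. When oxygen is low the alpha subunit escapes, pairs with ARNT and activates genes of glucose use, pH control and vessel growth. Because the main control is on protein stability, RNA and footprint counts measure the supply of these proteins and not HIF activity. In the intestine, HIF-2alpha is best known for driving iron uptake genes.

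Total counts were 6813372 in the knockout-labelled and 5429224 in the OE-labelled RNA library, and 3260262 and 2732760 in the footprint libraries of these lines. The gene named in the knockout label, IGF2BP1, went against that label, with 1974 RNA counts and 821 footprint counts in the knockout-labelled line, against 840 and 332 in the OE-labelled libraries. LIN28B had 303 RNA and 46 footprint counts in the knockout-labelled line, against 1205 and 190 in the OE-labelled line. The ratios given here thus set one label against the other and do not stand for a measured loss of IMP1. Which part of IGF2BP1 the knockout was to remove is not given. Of 10 colorectal epithelial markers, KRT18 had the highest counts in all 4 libraries, and CDH17 and LGALS4 were at 0 in all 4. The summed RNA level of these markers was 5161 CPM (counts as a share of the library total, on the usual CPM scale) in the knockout-labelled line and 10027 in the OE-labelled line. The keratin genes KRT18 and KRT8 carried most of this sum and were lower in the knockout-labelled line (log2 -1.10 and -1.22 in RNA). CDH1, the E-cadherin gene of the same list, went the other way, with 614 RNA and 436 footprint counts in the knockout-labelled line, against 243 and 167 in the OE-labelled line (log2 0.89 and 1.11). Of 7 of these markers with a mean of at least 50 RNA counts, 6 had a 95% counting interval below 0 and only CDH1 had one above it (median -0.81). Among all genes, 27.3% were below and 28.5% above. For 10 endothelial markers, the sums were 207 and 301 CPM in RNA, nearly all from KDR, and 9.20 and 8.78 in footprints, with CLDN5 at 0 in all 4 libraries. Of 8 fibroblast markers, 5 were at 0 in the knockout-labelled and 3 in the OE-labelled RNA library, with sums of 9.83 and 3.13 CPM. COL1A1 had 55 RNA and 57 footprint counts in the knockout-labelled line, against 2 and 0 in the OE-labelled line, while DCN and LUM were at 0 in all 4 libraries. Haematopoietic markers, 8 in all, summed to 24.8 and 12.7 CPM in RNA, mostly from CD68, and PTPRC was at 0 in all 4 libraries. The part of these marker differences in the results below was not tested.

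With 1 library per line and assay there is no replicate check and no test. Ratios are knockout-labelled over OE-labelled on a log2 scale after TMM scaling within an assay, and 95% intervals cover counting error only. A gene counted as different at 2-fold or more, and the comparison with all genes used those with a mean of at least 50 counts over the libraries of an assay. All 10 HIF genes passed this minimum in RNA, and 7 passed it in footprints. EGLN2, VHL and VEGFA did not.

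HIF binds the core letters ACGTG or GCGTG, so promoter windows of 250 bases before to 50 bases after the start were searched for both motifs on both strands. Windows in the RefSeq tables (GRCh38.p14) were matched for 8 of the 10 genes, all but VHL and VEGFA. The windows of CA9 and EGLN1 each held ACGTG once, while that of EPAS1 held GCGTG once and no ACGTG. These are shown because CA9 was higher and EGLN1 and EPAS1 were lower in the knockout-labelled line, EGLN1 past 2-fold in footprints only. Capitals mark the motif on either strand (CACGT is ACGTG read on the other strand).
CA9 (chr9:35673678-35673977, plus strand): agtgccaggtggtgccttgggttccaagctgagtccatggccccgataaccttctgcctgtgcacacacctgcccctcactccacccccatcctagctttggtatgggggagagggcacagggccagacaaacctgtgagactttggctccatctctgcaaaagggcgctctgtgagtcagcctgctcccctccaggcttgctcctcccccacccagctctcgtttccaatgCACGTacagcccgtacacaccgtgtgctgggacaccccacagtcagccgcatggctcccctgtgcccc
EGLN1 (chr1:231422238-231422537, minus strand): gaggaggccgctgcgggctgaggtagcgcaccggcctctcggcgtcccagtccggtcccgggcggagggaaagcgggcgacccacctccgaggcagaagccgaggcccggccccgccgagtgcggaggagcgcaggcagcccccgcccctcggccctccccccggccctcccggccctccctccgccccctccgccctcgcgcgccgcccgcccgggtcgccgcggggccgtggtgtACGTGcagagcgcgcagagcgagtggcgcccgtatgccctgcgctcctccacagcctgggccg
EPAS1 (chr2:46297157-46297456, plus strand): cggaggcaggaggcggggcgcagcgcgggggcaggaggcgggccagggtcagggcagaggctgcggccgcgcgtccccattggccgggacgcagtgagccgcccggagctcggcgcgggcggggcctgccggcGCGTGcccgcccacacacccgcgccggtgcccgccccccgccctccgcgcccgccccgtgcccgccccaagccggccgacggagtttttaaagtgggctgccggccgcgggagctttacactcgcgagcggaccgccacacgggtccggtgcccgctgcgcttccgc
The first base of the CA9 match lies at position -18 from the start, that of EGLN1 at -13 and that of EPAS1 at -117. Of the other members, EGLN2 held overlapping ACGTG matches on both strands in 1 of its 2 windows, and HIF1A held 1 GCGTG match in 1 of its 2 windows. ARNT, HIF1AN and EGLN3 held neither motif. Across the 19790 windows of genes in the count tables, 23.2% held ACGTG and 55.02% held at least 1 of both motifs. A match describes letters and is not a binding site. The starts of the CA9, EGLN1, ARNT and HIF1AN windows lie inside the listed GENCODE transcripts, whose own annotated starts are further upstream. The CA9 and EGLN1 matches lie inside these transcripts too. For EPAS1 and EGLN3 the window start and the listed start differ by only a few bases.

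LIN28B blocks the maturation of let-7 microRNAs and differed between the lines, so the members' listed transcripts were also searched for the let-7 seed match CTACCTC. The mature sequence of let-7a-5p is shown with its seed, bases 2 to 8, in capitals, and this seed is shared by the 8 let-7 arms matched. Below it are the matches, in capitals within their flanking bases.
hsa-let-7a-5p: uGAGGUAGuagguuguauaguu
HIF1AN, 3′ UTR: tcagtaggttccCTACCTCtgggtctt
HIF1AN, 3′ UTR: tgttgaaaatatCTACCTCagggttgt
VEGFA, coding: tgccttgctgctCTACCTCcaccatgc
HIF1AN held 2 matches in a 3′ UTR of 11864 bases, at 5341 to 5347 and 6835 to 6841 of its transcript, VEGFA held 1 in its coding sequence, at 86 to 92, and no other HIF gene held any. Among all listed transcripts, 20.35% held at least 1 match, and 7.917% of 3′ UTRs did. These shares were taken over all lengths, and none was counted for 3′ UTRs as long as that of HIF1AN. The ratios of HIF1AN given below were within 0.10 of 0 on the log2 scale in both assays. Those of VEGFA were 1.14 in RNA and -0.40 in footprints, the second with an interval that included 0. The part of let-7 in these ratios was not tested.

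EPAS1, which encodes the alpha subunit HIF-2alpha (ENST00000263734, chromosome 2, 46297402 to 46386703, GRCh38), differed most of the 10. It had 309 RNA counts in the knockout-labelled library and 1846 in the OE-labelled library, or 43.5 and 354 CPM after TMM scaling. EPAS1 footprints numbered 202 in the knockout-labelled line, against 953 in the OE-labelled line. The log2 ratio was -3.02 in RNA (95% interval -3.20 to -2.85) and -2.51 in footprints (-2.74 to -2.29), or 8.12-fold and 5.70-fold lower. Among all genes measured, this placed EPAS1 at rank 10 from the lowest of 9855 in RNA and rank 15 from the lowest of 7323 in footprints. In bulk cells, fewer cells with EPAS1 RNA and less EPAS1 RNA per cell cannot be told apart.

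HIF1A, which encodes the other main alpha subunit, HIF-1alpha (ENST00000337138, chromosome 14, 61695540 to 61748258), did not share this direction. Its RNA counts were 1118 in the knockout-labelled and 704 in the OE-labelled library, and its footprint counts were 848 and 563. That gave log2 ratios of 0.22 in RNA (0.09 to 0.36) and 0.31 in footprints (0.16 to 0.47), both off 0 by counting error but far from 2-fold. Intervals that exclude 0 are common at this depth, since 55.7% of all genes had one in RNA and 57.3% in footprints.

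The make-up of the alpha pool was therefore inverted between the lines, in a measure that does not depend on scaling. EPAS1 took 21.7% of the HIF1A plus EPAS1 RNA counts in the knockout-labelled library (exact 95% interval 19.5 to 23.9), against 72.4% in the OE-labelled library (70.6 to 74.1). In footprints the EPAS1 share was 19.2% (16.9 to 21.8) in the knockout-labelled line and 62.9% (60.4 to 65.3) in the OE-labelled line. The odds of an alpha-subunit read being HIF1A were 9.48 times higher in the knockout-labelled RNA library (8.12 to 11.1) and 7.10 times higher in its footprint library (5.88 to 8.60). Per coding length, which is similar for these genes (2478 bases for HIF1A and 2610 for EPAS1), the EPAS1 share of footprints was 18.4% in the knockout-labelled line and 61.6% in the OE-labelled line.

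Adding both genes, alpha-subunit footprints were 1050 in the knockout-labelled line and 1516 in the OE-labelled line, a log2 ratio of -0.81 (-0.92 to -0.69). The RNA sum stood at -1.28 (-1.38 to -1.19). ARNT, which encodes the shared beta subunit HIF-1beta (ENST00000358595, chromosome 1, 150809705 to 150876768), had 250 RNA and 157 footprint counts in the knockout-labelled line, against 168 and 118 in the OE-labelled line. Its log2 ratios of 0.13 (-0.16 to 0.42) and 0.13 (-0.22 to 0.49) could not be told from 0 by counting error. Footprints per kilobase of coding sequence were 20.2 CPM for ARNT and 128 for the summed alpha subunits in the knockout-labelled line, against 18.4 and 218 in the OE-labelled line.

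**Figure D1:**
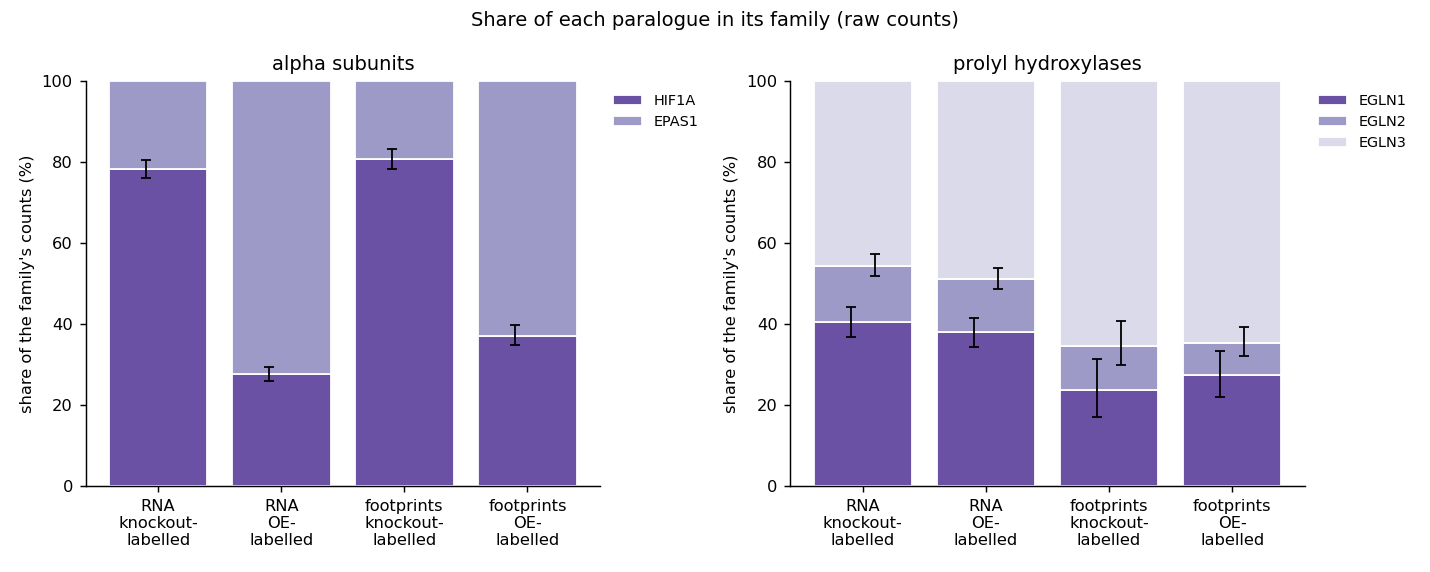
Share of each paralogue in the raw counts of its family (%, vertical axis) for the HIF alpha subunits and the prolyl hydroxylases, in RNA and footprint libraries of the knockout-labelled and OE-labelled lines. Error bars are exact 95% binomial intervals of the share of the segment they cap, EPAS1 is 21.7% and 19.2% of alpha counts in the knockout-labelled line against 72.4% and 62.9% in the OE-labelled line, and the hydroxylase shares differ by less than their counting error.

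The prolyl hydroxylase genes EGLN3 and EGLN1 were lower in the knockout-labelled line, past 2-fold in footprints but not in RNA. EGLN3, which encodes PHD3, an enzyme whose gene is itself HIF-induced (ENST00000250457, chromosome 14, 33924231 to 33951081), had 321 RNA counts in the knockout-labelled and 360 in the OE-labelled library. Its footprints were 97 and 164. The log2 ratio of EGLN3 was -0.61 in RNA (-0.83 to -0.39) and -1.03 in footprints (-1.41 to -0.66), just past 2-fold in the second.

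EGLN1 encodes PHD2, the main sensor that sets HIF-1alpha levels in oxygen (ENST00000366641, chromosome 1, 231363751 to 231425044). RNA counts of EGLN1 were nearly equal before scaling, 285 in the knockout-labelled and 279 in the OE-labelled library, for a log2 ratio of -0.41 (-0.66 to -0.17). Footprints of EGLN1 were 35 and 69, a log2 ratio of -1.25 (-1.89 to -0.65). Its footprint ratio over its RNA ratio was -0.83 (-1.46 to -0.20), so fewer footprints per RNA were counted in the knockout-labelled line.

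EGLN2, which encodes PHD1 (ENST00000593726, chromosome 19, 40799545 to 40808433), had the lowest hydroxylase counts. It had 98 RNA and 16 footprint counts in the knockout-labelled line, against 97 and 20 in the OE-labelled line. The log2 ratio was -0.43 in RNA (-0.85 to -0.01) and -0.59 in footprints (-1.64 to 0.42). The tables also list a read-through transcript, RAB4B-EGLN2, which overlaps EGLN2 and can share its reads, so the value is uncertain. With both summed, a setting chosen after seeing the data, the RNA ratio was -0.05 (-0.34 to 0.25) and the footprint ratio -0.24 (-0.88 to 0.40), and the EGLN2 difference in RNA was no longer off 0.

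Summed over the 3 EGLN genes, footprints numbered 148 in the knockout-labelled line and 253 in the OE-labelled line, a log2 ratio of -1.05 (-1.35 to -0.75), while RNA stood at -0.51 (-0.66 to -0.36). Shares within the family could not be told apart at this depth. EGLN3 made up 65.5% of EGLN footprints in the knockout-labelled line (57.3 to 73.2) and 64.8% in the OE-labelled line (58.6 to 70.7), and its odds ratio between lines was 1.03 (0.66 to 1.62). EGLN1 took 23.6% and 27.3% of them, and 40.5% and 37.9% of the RNA counts. Each of the 6 odds ratios, 3 genes in 2 assays, had an interval that included 1, and these intervals together ran from 0.50 to 2.98.

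HIF1AN, the asparaginyl hydroxylase gene for FIH, which blocks coactivator binding to the alpha subunits (ENST00000299163, chromosome 10, 100535859 to 100559998), was close to equal. It had 850 RNA counts in the knockout-labelled and 583 in the OE-labelled library, a log2 ratio of 0.10 (-0.05 to 0.25). Its footprints were 120 and 105, a log2 ratio of -0.08 (-0.47 to 0.31).

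VHL, the substrate receptor of the ubiquitin ligase that binds hydroxylated alpha subunits (ENST00000256474, chromosome 3, 10141008 to 10152220), was near 0 in RNA but not in footprints. RNA counts were 212 in the knockout-labelled and 170 in the OE-labelled library, a log2 ratio of -0.13 (-0.42 to 0.17). Footprints were few, 48 in the knockout-labelled and 16 in the OE-labelled library, for a ratio of 1.28 (0.47 to 2.22). VHL footprints relative to RNA were 2.65-fold higher in the knockout-labelled line (log2 1.41, 0.55 to 2.26). As its footprints averaged under 50 counts, VHL is not in the count of genes past 2-fold.

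Of the target genes, CA9 was higher in both assays. It encodes carbonic anhydrase IX, a cell-surface enzyme of pH control and a widely used marker of HIF-1 activity (ENST00000378357, chromosome 9, 35673856 to 35681159). CA9 had 138 RNA counts in the knockout-labelled library and 27 in the OE-labelled library, a log2 ratio of 1.89 (1.31 to 2.56), or 3.70-fold. Its footprints were 133 and 53, a ratio of 1.04 (0.58 to 1.54), just past 2-fold and at 0.97 when 5 instead of 0.5 was added to each count. In RNA it stood at rank 25 from the highest of 9855 genes, and in footprints at rank 290 from the highest of 7323.

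VEGFA encodes the vascular endothelial growth factor VEGF-A, the best known angiogenic HIF target (ENST00000523950, chromosome 6, 43771209 to 43784902) and was higher in RNA, with too few footprints for a direction. RNA counts were 157 in the knockout-labelled and 52 in the OE-labelled library, a log2 ratio of 1.14 (0.69 to 1.63). Footprints were 34 and 37, a ratio of -0.40 (-1.11 to 0.31) that cannot be told from 0 at this depth. VEGFA footprints relative to RNA were 2.90-fold lower in the knockout-labelled line (log2 -1.54, -2.34 to -0.73), on 34 and 37 footprint counts that lie under the minimum. The listed transcript is a short VEGFA isoform of 954 bases, and which reads of other isoforms were counted for it is not given.

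**Figure D2:**
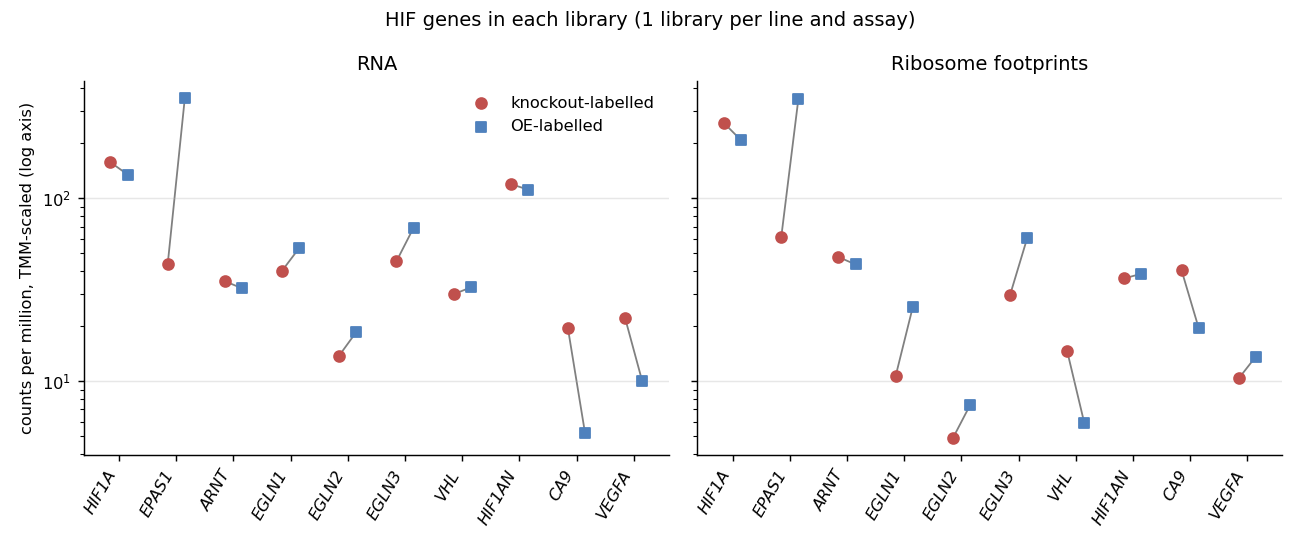
TMM-scaled CPM (log axis) of the 10 HIF genes in RNA and footprint libraries, with the knockout-labelled line as circles and the OE-labelled line as squares, 1 library each. EPAS1 shows the widest gap, with 43.5 against 354 CPM in RNA, and CA9 and VEGFA are higher in the knockout-labelled RNA library.

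Counted over the members that passed the minimum, 2 of 10 were at least 2-fold higher in RNA (CA9 and VEGFA) where 2.99% of all genes were, and 1 of 10 was lower by as much (EPAS1) where 3.49% were. In footprints, 1 of 7 was at least 2-fold higher (CA9) against 4.66% of all genes. In the other direction, 3 of 7 were at least 2-fold lower (EPAS1, EGLN1 and EGLN3) against 4.44%. The minimum was set on the mean of both lines. EGLN1 footprints (35 in the knockout-labelled and 69 in the OE-labelled line) met it only through the OE-labelled line. CA9 RNA (138 and 27 counts in the same order) met it only through the knockout-labelled line. The shares of all genes were counted under the same minimum. For the footprint ratio over the RNA ratio, none of 7 was past 2-fold in either direction, where 3.65% of genes were higher and 3.6% lower. By intervals that exclude 0, 3 of 10 were higher in RNA (HIF1A, CA9 and VEGFA) and 4 lower (EPAS1, EGLN1, EGLN2 and EGLN3), where 28.5% and 27.3% of all genes were. In footprints 2 of 7 were higher (HIF1A and CA9) and 3 lower (EPAS1, EGLN1 and EGLN3), where 29.9% and 27.4% were. In the footprint ratio over the RNA ratio, 1 of 7 was higher (EPAS1) and 2 lower (EGLN1 and CA9), where 22.8% and 22.9% were, 45.7% in all. Some of these calls by interval lie close to 0. EGLN2 in RNA was lost when summed with its read-through, as given above, and with scaling by total counts (-0.31, -0.73 to 0.11). With total counts HIF1AN was instead above 0 in RNA (0.22, 0.06 to 0.37). EGLN3 was also below 0 in the footprint ratio over the RNA ratio with total counts (-0.52, -0.94 to -0.09) and with DESeq2 size factors. Scaling by total counts, which moved the median gene by 0.12 in RNA, changed the number of all genes past 2-fold in RNA to 408 higher and 261 lower, against 295 and 344. In the footprint ratio over the RNA ratio it gave 194 higher and 358 lower, against 265 and 261, and upper-quartile scaling gave 314 and 225. These scalings left the counts of HIF genes past 2-fold as given.

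**Figure D3:**
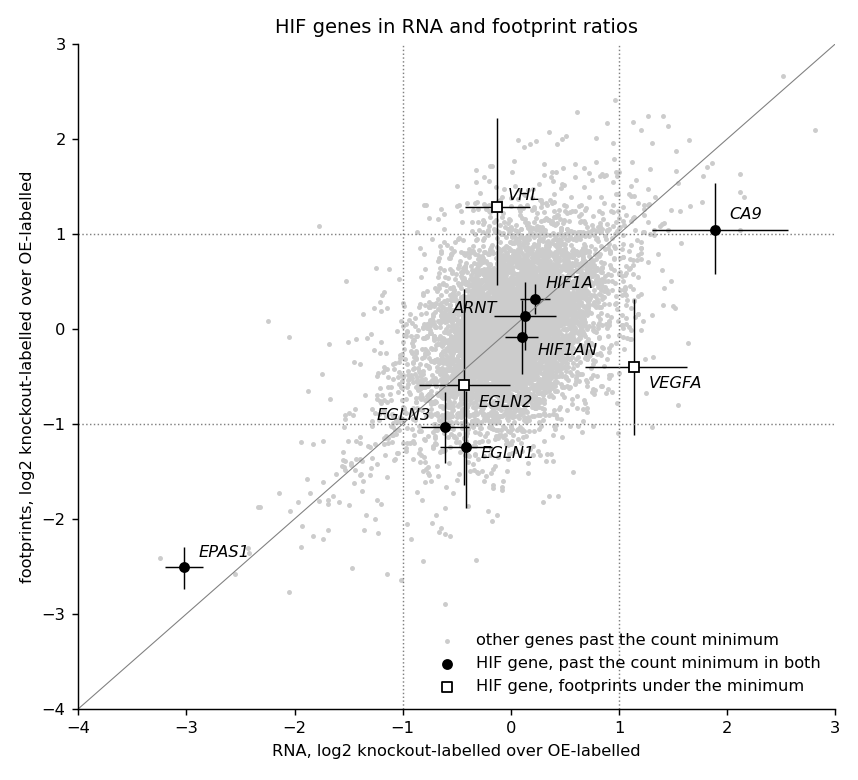
Log2 ratio of the knockout-labelled over the OE-labelled line in RNA (horizontal) and footprints (vertical), with 95% counting intervals for HIF genes, grey points for other genes past the count minimum in both assays, dotted lines at 2-fold and a diagonal of equal ratios. EPAS1 lies at -3.02 and -2.51, CA9 at 1.89 and 1.04, and VHL and VEGFA (open squares, as is EGLN2) lie far from the diagonal.

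Footprints over RNA within a line, scaled over all 4 libraries, differed widely between the members. The median over all measured genes was 0.29 in the knockout-labelled line and 0.26 in the OE-labelled line, so a value of 0 is below the typical gene. HIF1A stood at a log2 ratio of 0.76 in the knockout-labelled line (0.63 to 0.89) and 0.66 in the OE-labelled line (0.50 to 0.82). ARNT stood at 0.49 and 0.48 in these lines. EPAS1 differed, with 0.55 (0.29 to 0.81) in the knockout-labelled and 0.03 (-0.08 to 0.14) in the OE-labelled line. With the all-gene median set to 0, EPAS1 stood at 0.26 in the knockout-labelled and -0.23 in the OE-labelled line, and HIF1A at 0.48 and 0.41. With scaling within each assay, the EPAS1 footprint ratio between lines lay above its RNA ratio by 0.51 (0.23 to 0.79).

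CA9 had the highest footprints over RNA of the 10 genes in both lines, at 1.11 (0.76 to 1.46) in the knockout-labelled line and 1.94 (1.26 to 2.68) in the OE-labelled line. The second value was above 98.9% of measured genes but rests on 27 RNA counts. The oxygen sensors and VHL lay below 0 in both lines. EGLN1 stood at -1.84 and -1.02 in the knockout-labelled and OE-labelled lines, EGLN2 at -1.41 and -1.27, and HIF1AN at -1.66 and -1.48. EGLN3 was nearest to 0, at -0.56 and -0.15.

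VHL was at -0.97 in the knockout-labelled line and -2.38 in the OE-labelled line, where it lay above only 1.25% of genes. VEGFA was at -1.03 (-1.62 to -0.50) in the knockout-labelled line and 0.50 (-0.16 to 1.13) in the OE-labelled line. Most members low in footprints over RNA have long untranslated regions. Coding sequence is 8.05% of the listed HIF1AN transcript, 17.1% of VHL, 18.0% of EGLN1 and 26.5% of EGLN3, but 63.2% of HIF1A and 85.1% of CA9. EGLN2, at 43.3%, did not follow this order. VEGFA, at 60.1% of its short listed isoform, was low only in the knockout-labelled line, on 34 footprint counts. Over 7252 genes, footprints over RNA were higher at a higher coding share (Spearman rho 0.27 in the knockout-labelled and 0.30 in the OE-labelled line, across genes that share libraries and are not replicates). Within the fifth of genes with the lowest coding share, HIF1AN lay above 10.5% of genes in the knockout-labelled line and 14.5% in the OE-labelled line, and EGLN1 above 8.13% and 26.1%. EGLN3 lay above 38.3% and 55.3% of these genes in the same lines, and VHL above 25.4% and 3.79%. Whether RNA reads in untranslated regions were counted is not given, and their part in these levels was not tested.

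**Figure D4:**
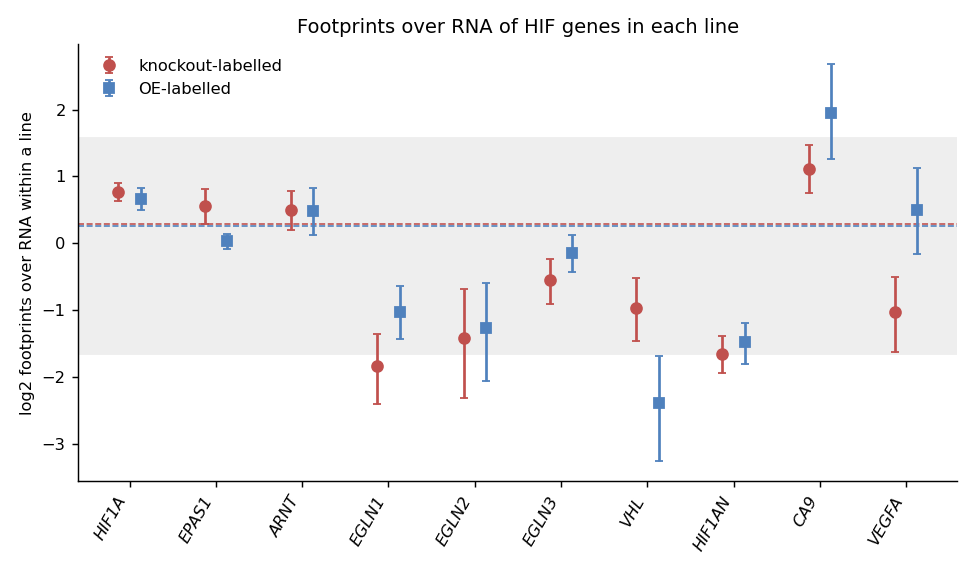
Log2 footprints over RNA (vertical) of the 10 HIF genes within the knockout-labelled line (circles) and the OE-labelled line (squares), with exact 95% counting intervals, the median of all measured genes as dashed lines and their central 90% in grey. CA9 is highest and VHL in the OE-labelled line lowest, at -2.38.

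RNA ratios were set beside those of the 40 nearest measured genes on the chromosome (38 for VHL). EPAS1 lay below all 40 neighbours, whose median was -0.04 and whose lowest was -1.09. CA9 lay above all 40 of its neighbours (median 0.13, highest 1.09), and VEGFA above 39 of 40 (median -0.02). Only 2 of the 40 neighbours of EGLN3 were lower than it. HIF1A, at 0.22, was below the median of its own neighbourhood, 0.40, and the ratios of ARNT, VHL and HIF1AN were close to theirs (medians 0.18, -0.15 and 0.13).

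The genes with the pair of RNA and footprint ratios nearest to that of EPAS1, out of 7260 measured in both assays, were SAA1 (log2 -3.25 in RNA and -2.41 in footprints), TGFBI (-2.56 and -2.58), SAA2 (-2.42 and -2.36), LIN28B (-2.43 and -2.31) and DPYSL2 (-2.34 and -1.88). SAA1 and SAA2 are near-identical paralogues, so their reads may be split between them. For VEGFA the nearest were GGCX (1.24 and -0.32), PHF13 (1.00 and -0.46), PNISR (1.31 and -0.29), EDEM3 (1.04 and -0.22) and BTBD10 (0.93 and -0.49). Likeness was the Euclidean distance over these 2 ratios from 4 libraries, and so describes these libraries only.

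Other genes described as HIF targets did not follow one direction. Of 29 measured in RNA, 2 were higher and 3 lower by 2-fold or more, where 2.99% and 3.49% of all genes were, with a median log2 ratio of 0.06 against 0.01 for all genes. Of 26 in footprints, none was at least 2-fold higher and 2 were lower, where 4.66% and 4.44% of all genes were, with a median of 0.07 against 0.02. NDRG1, a stress-induced gene linked to differentiation, had 611 RNA and 503 footprint counts in the knockout-labelled line, against 1599 and 960 in the OE-labelled line. Its log2 ratios were -1.83 (-1.97 to -1.70) and -1.21 (-1.37 to -1.05). ANKRD37, an ankyrin repeat gene induced by HIF, stood at -1.74 and -2.22 (43 against 106 RNA counts and 52 against 201 footprint counts). RAB20, a small GTPase gene, was at -1.03 in RNA and -0.45 in footprints (-0.97 to 0.06), where its interval included 0. In the opposite direction from these were EFNA1, an ephrin ligand gene (1.11 in RNA, 121 against 41 counts), and VLDLR, a lipoprotein receptor gene (1.03, 224 against 80 counts). Footprint ratios were 0.64 (0.13 to 1.18) for EFNA1 and 0.51 (-0.02 to 1.06) for VLDLR, so the interval of VLDLR included 0. In RNA, EFNA1 met the count minimum only through the knockout-labelled line, and ANKRD37 only through the OE-labelled line.

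Glycolysis genes induced by hypoxia were mostly below 0. Of 18 measured in RNA, 12 had an interval below 0 and 2 above it, against 27.3% and 28.5% of all genes, with a median of -0.24. Of 17 in footprints, 13 were below and 2 above, against 27.4% and 29.9%, with a median of -0.40. With scaling by total counts these medians were -0.12 in RNA and -0.38 in footprints. In RNA 1 of 18 was at least 2-fold lower and none higher, where 3.49% and 2.99% of all genes were. In footprints none of 17 was past 2-fold, where 4.44% of all genes were lower and 4.66% higher. The 1 gene past 2-fold was SLC2A3, the gene of the glucose transporter GLUT3. SLC2A3 had 2914 RNA counts in the knockout-labelled and 4416 in the OE-labelled library (log2 -1.04, -1.11 to -0.98). Its footprint ratio was -0.96. SLC2A1 of this list was not found by name among the genes counted. Nor were BNIP3 and WSB1 of the other HIF targets above, and EP300 of the HIF pathway regulators. Both directions occurred among genes described as HIF-2 targets in intestine or kidney cancer. CCND1, the cyclin D1 gene, was at -1.53 in RNA and -1.39 in footprints, NDRG1 as given above, and CYBRD1, which encodes a ferric reductase of the gut surface, at -0.77 and -1.51. SLC11A2 and TFRC of the same list, which serve iron uptake as CYBRD1 does, went the other way. They were named after their values were seen, and the iron uptake genes were thus split in direction. SLC11A2, the gene of the iron transporter DMT1, was at 0.94 in RNA (0.56 to 1.34) and 0.51 in footprints, and TFRC, the transferrin receptor gene, at 0.81 (0.72 to 0.90) and 0.92. Of the 8 measured, 4 had an interval above 0 and 4 below it in each assay. Among all genes, 28.5% had one above and 27.3% below in RNA, and 29.9% and 27.4% in footprints. None of the 8 was at least 2-fold higher, where 2.99% of all genes were in RNA and 4.66% in footprints. In RNA 2 were lower by as much, against 3.49% of all genes, and in footprints 3 were, against 4.44%. The medians were -0.30 and -0.18, against 0.01 and 0.02 for all genes. With a count minimum of 10 these medians were -0.74 and -0.88, and with a minimum of 200 that of footprints was -0.51. CCND1 and NDRG1 answer to other pathways too.

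Enzymes that use oxygen and 2-oxoglutarate as the sensors do, but act on histones, collagen, DNA or RNA, lay slightly above 0. Their median was 0.33 over 19 genes in RNA and 0.23 over 17 in footprints. Intervals lay above 0 for 11 and below 0 for 3 of them in RNA, and for 8 and 5 in footprints, where 28.5% and 27.3% of all genes were above and below in RNA, and 29.9% and 27.4% in footprints. KDM6B, a histone H3 demethylase gene, was the only one past 2-fold. It had 1657 RNA and 425 footprint counts in the knockout-labelled line, against 505 and 142 in the OE-labelled line (log2 1.27 and 1.30). Among all genes, 2.99% were at least 2-fold higher and 3.49% lower in RNA, and 4.66% and 4.44% in footprints. Against these same shares, none of the other HIF pathway regulators, 18 in RNA and 14 in footprints, passed 2-fold. In the footprint ratio over the RNA ratio, 1 of 14 regulators was at least 2-fold lower and none higher, where 3.6% and 3.65% of all genes were. Those with the most counts were HSP90AA1, a chaperone of HIF-1alpha (-0.20 in RNA and -0.46 in footprints), and GNB2L1, the gene of RACK1 (-0.29 and 0.38).

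Among growth factors of the VEGF, PDGF and related families and their receptors, 1 of 6 measured in RNA was at least 2-fold lower and none higher, where 3.49% and 2.99% of all genes were, with a median of -0.68. This was PDGFA, with 1077 RNA and 366 footprint counts in the knockout-labelled line, against 1653 and 590 in the OE-labelled line (log2 -1.06 and -0.96). KDR, the main VEGF-A receptor gene, had 1312 RNA counts in the knockout-labelled and 1571 in the OE-labelled library, but 3 footprint counts in each line. Of 14 other carbonic anhydrase genes, 1 passed the minimum, the mitochondrial CA5B, with ratios of 0.01 in RNA and 0.00 in footprints on 85 against 62 and 62 against 51 counts. CA12, the other membrane carbonic anhydrase known for HIF control, had 11 RNA and 0 footprint counts in the knockout-labelled line, against 1 and 10 in the OE-labelled line, few counts that differ in direction between the assays. CA11, the next most abundant by RNA, had 37 RNA and 32 footprint counts in the knockout-labelled line, against 33 and 18 in the OE-labelled line.

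**Figure D5:**
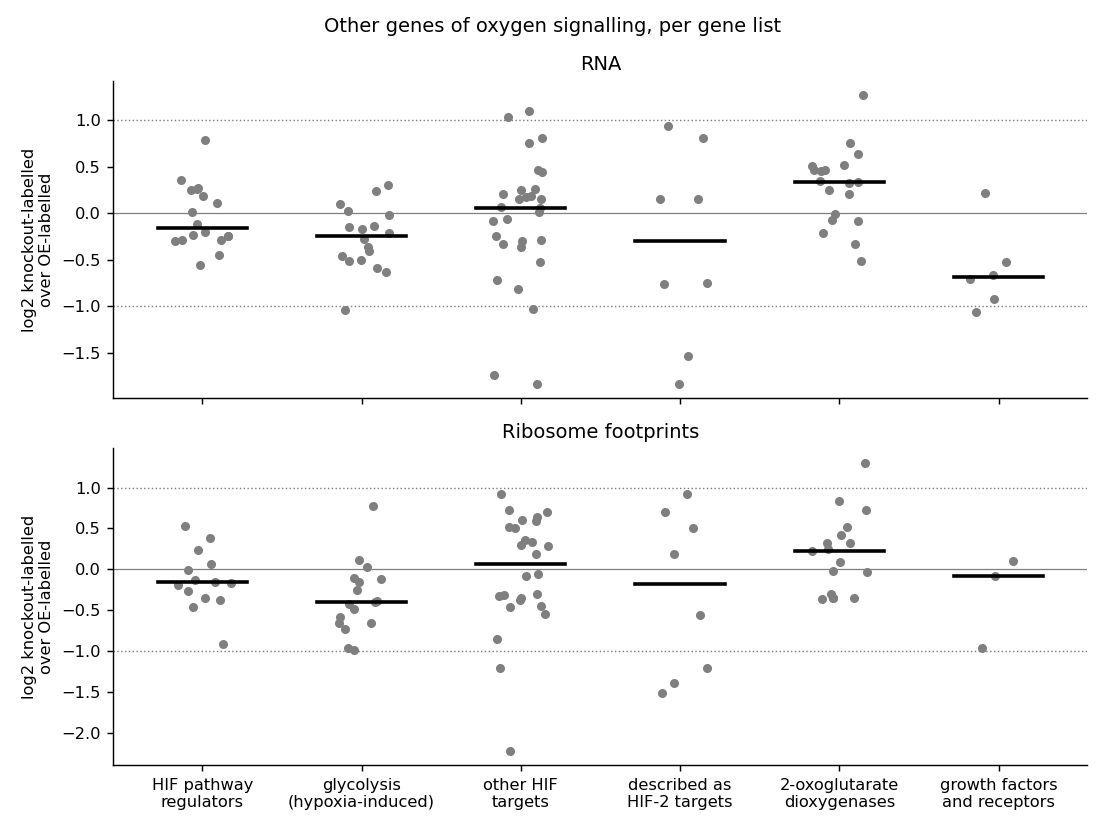
Log2 ratio of the knockout-labelled over the OE-labelled line (vertical) for each measured gene of 6 oxygen-signalling lists in RNA and footprints, with black bars at list medians and dotted lines at 2-fold. Glycolysis genes lie mostly below 0 (medians -0.24 and -0.40) and dioxygenase genes mostly above (0.33 and 0.23).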

How the data were processed

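Per the labels' protocols, the 4 libraries held size-selected fragments, of 18 to 34 nt for footprints and 18 to 50 nt for RNA. Linkers carried random identifiers of 4 and 5 nt, and cDNA was amplified over 15 cycles. The deposited values are raw counts, and each gene has 1 listed transcript. The submitters' processing notes name cutadapt 1.10, Bowtie 1.1.2, HISAT2 2.1.0 and GRCh38, with no role or order. The counter, the counted region and whether PCR copies were collapsed are not stated in any source read here, and copies would make the intervals too narrow. The cell line field of the OE-labelled RNA library reads SW840 and its source field SW480, and it was taken as SW480.

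Libraries were grouped by their labels. Counts were scaled with TMM factors (edgeR 4.0.16, R 4.3.3), within an assay for ratios between lines and over all 4 libraries for ratios within a line. The log2 ratios had 0.5 added to each count. Intervals are exact conditional binomial (95%), and Wald intervals from 4 counts for the footprint ratio over the RNA ratio. No test or interaction model was fitted, since each group is 1 library. The ratio between lines within an assay and its exact interval were tested on simulated Poisson counts with 200 changed genes. TMM scaling, the footprint ratios over RNA and the shares were not part of this, and the simulated counts held no PCR copies.

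The members and the gene lists were chosen with earlier results of these data known. Named genes are the members, IGF2BP1 and LIN28B, list genes past 2-fold in RNA or footprints (at most 6 per list, by counts) or otherwise the 2 with the most counts, and the 5 nearest patterns. CA12, SLC11A2 and TFRC were named after their values were seen. As alternatives, libraries were scaled by total counts, by upper quartiles or by size factors from DESeq2 1.42.0. The count minimum was also set to 10, to 200 or left out, the fold needed to 1.5 or 3, and the added count to 5. Within a line, the all-gene median was also set to 0. Transcript coordinates and lengths are from GENCODE release 29, in which 19176 of 19192 listed transcripts were found. Python 3.11.15, scipy 1.17.1, numpy 2.4.6, pandas 2.3.3 and matplotlib 3.10.9 were used.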

Additional observations from a re-analysis of the deposited data

How the results depend on the processing

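DESeq2 size factors, total counts and upper-quartile scaling left the number of HIF genes past 2-fold as given in each comparison. Adding 5 to each count left CA9 under 2-fold in footprints, so 0 were higher there. With a count minimum of 200, 0 HIF genes were higher in RNA, 0 higher and 1 lower in footprints, because fewer were measured. With a minimum of 10, and with none, 2 were higher in footprints (VHL joins), and 1 higher (VHL) and 1 lower (VEGFA) in the footprint ratio over the RNA ratio. At 1.5-fold, 2 were lower in RNA and 2 lower in that ratio. At 3-fold, 1 was higher in RNA, and 0 higher and 1 lower in footprints. No ratio between lines past 2-fold changed sign under another scaling or added count. For HIF1A and ARNT, the sign of the footprint ratio over the RNA ratio, near 0, flipped to below 0 with total counts.

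For all genes, a minimum of 10, of 200 and none gave 698, 72 and 2025 higher and 765, 109 and 1908 lower in RNA. In footprints these were 940, 61 and 1929 higher and 968, 70 and 2078 lower, and in the footprint ratio over the RNA ratio 884, 24 and 1749 higher and 893, 17 and 1832 lower. Thresholds of 1.5 and 3 gave 1036 and 46 higher and 1038 and 81 lower in RNA, 1095 and 59 higher and 1028 and 76 lower in footprints, and 972 and 42 higher and 939 and 35 lower in that ratio. The cause is the construction of each setting, which changes the genes or the fold counted. No paired analysis was possible because each group has 1 library. Depth limits EGLN2, VHL and VEGFA in footprints and CA9 in the OE-labelled RNA library most.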
